A study of Mus musculus with 12 samples.

Results

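The 6 genes described here are Nr3c1, which encodes the glucocorticoid receptor, and 5 of its common target genes, Fkbp5, Tsc22d3, Per1, Sgk1 and Ddit4. They were taken by symbol from the 43626 identifiers of the count matrix, of which 13238 passed the filter on low counts, all 6 among them. The set was chosen by the measured counts of Fkbp5, which were already known to be higher in Het GFP-positive cells. Its values in that contrast, in Het against KO GFP-positive cells and in the interaction of both are therefore given without a test, and the question is whether the other targets follow.

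RNA was sequenced from splenic CD4+ T cells of 6 recipient mice, and all 4 groups share the transfer. Donor mice carried an Eomes flox/GFP genotype, in which 1 allele of the gene of the T-box factor EOMES can be deleted by cre and the other carries a green fluorescent protein (GFP) reporter. Donors with no cre are called Het, and donors with Lck-cre, which is driven by a T cell promoter, are called KO. Naive CD45RBhi CD25- CD4+ cells were transferred into adult male Rag2-/- mice, which lack T and B cells of their own but keep myeloid and NK cells. After 3 weeks GFP-positive and GFP-negative cells were sorted from each spleen, giving 3 libraries for each sort of each genotype and 4 groups in all. GFP therefore marks cells that have switched on the Eomes locus in both genotypes. Sources used here do not give the donors' age and sex, nor whether recipients of a genotype shared a donor pool.

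Glucocorticoids enter the cell and bind the receptor, which waits in the cytoplasm in a complex with the chaperone HSP90 and co-chaperones such as FKBP5. The bound receptor moves to the nucleus, where it binds palindromic DNA elements or other factors and raises or lowers transcription. In T cells the hormone dampens activation, kills immature thymocytes and follows a daily rhythm, and Fkbp5, Tsc22d3 and Per1 are widely used as readouts of receptor activity.

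Total counts ran from 2116894 (KO GFP-positive replicate 2) to 18167236, and 18000 to 117000 cells were sorted per GFP-positive library against 645000 to 2100000 per GFP-negative library. In Het GFP-positive replicate 2 and KO GFP-positive replicate 2, 4 abundant features took 58.3% and 54.3% of the counts, against 16.3% to 30.9% in the other libraries. KO GFP-positive replicate 1 stood apart from its group on the first principal component (42.4% of the variance), at -17.8 among the GFP-negative libraries. Eomes averaged 109 ± 17.4 CPM (counts scaled to library size; SD, n = 3) in Het and 41.3 ± 8.44 in KO GFP-positive cells, against 5.01 ± 3.70 and 2.95 ± 1.54 in the GFP-negative cells. Which exons cre removes is not given in the sources used here, so this check of the labels is partial. The summed level of 5 CD4 T cell markers (the CD3 chains, Cd4 and Trac) was 996 to 1815 CPM and lower in the GFP-positive library in 6 of 6 recipients. Sums of 8 myeloid, 6 granulocyte and 7 erythroid markers and of 9 dissociation stress genes were higher in the GFP-positive library in 6 of 6 recipients. Y-linked transcripts summed to 0 to 32.0 CPM in Het and 41.5 to 221 CPM in KO libraries, so donor sex and genotype cannot be told apart in comparisons of Het with KO. These transcripts also differed between sorts of a recipient, as for Xist at 500 CPM without and 55.7 CPM with GFP in KO recipient 2 (940 to 1819 CPM in Het libraries) and Y-linked transcripts at 131 and 41.5 CPM in KO recipient 1, and their part in the sort comparisons was not tested. In these bulk libraries, fewer cells that express a gene and less RNA per cell cannot be told apart either.

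Start-site windows from RefSeq (GRCm38.p6, the 250 bases before each annotated start) were matched for 5 of the 6 genes and searched on both strands for 3 motifs. They are the receptor half-site AGAACA, the full receptor palindrome (AGAACA and its reverse complement TGTTCT with any 3 bases between them) and the E-box CACGTG, the element bound by the clock factors CLOCK and ARNTL. Fkbp5, Per1 and Sgk1 each had a window with an E-box, found in 6.02% of 32851 such windows and for 6.86% of 27025 genes. Per1 and Sgk1 had more than 1 window, and their other windows held no E-box. The windows with an E-box are shown here because these 3 genes moved differently. Capitals mark each E-box and the full palindrome. The palindrome was found in the Sgk1 window printed here, in no other window of the 5 genes and in 0.00913% of all windows.
Fkbp5, start inside the gene, chr17:28486150-28486399, minus strand: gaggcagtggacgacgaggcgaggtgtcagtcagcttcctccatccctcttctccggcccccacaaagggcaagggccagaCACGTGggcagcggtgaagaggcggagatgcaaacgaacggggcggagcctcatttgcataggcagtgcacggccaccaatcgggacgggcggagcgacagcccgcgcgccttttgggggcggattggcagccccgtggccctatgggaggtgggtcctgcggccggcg
Per1, start inside the gene, chr11:69098699-69098948, plus strand: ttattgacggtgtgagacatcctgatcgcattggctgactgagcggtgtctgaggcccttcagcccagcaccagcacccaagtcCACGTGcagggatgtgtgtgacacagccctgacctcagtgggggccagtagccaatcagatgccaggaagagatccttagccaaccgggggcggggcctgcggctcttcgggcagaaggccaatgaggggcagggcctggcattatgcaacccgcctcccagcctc
Sgk1, start inside the gene, chr10:21993640-21993889, plus strand: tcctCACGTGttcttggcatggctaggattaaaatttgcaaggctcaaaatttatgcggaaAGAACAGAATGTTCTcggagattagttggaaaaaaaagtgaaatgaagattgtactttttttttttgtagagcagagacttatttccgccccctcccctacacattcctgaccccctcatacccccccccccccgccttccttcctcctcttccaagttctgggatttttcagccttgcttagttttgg
The E-box began 169 bases before the start in Fkbp5, 166 in Per1 and 246 in Sgk1, and the palindrome began 189 bases before the Sgk1 start. Half-sites occurred in 16.1% of all windows. The printed Sgk1 window held 3, of which 2 form the palindrome and 1, left in lower case where it runs on from the E-box that it overlaps, began 242 bases before the start. Other Sgk1 windows held half-sites 195 and 13 bases before their starts, and a Tsc22d3 window held 1 at 185 bases. The Ddit4 window held none of the 3 motifs. These are matches of letters in short windows and were not tested for binding.

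The 5 other genes did not all move with Fkbp5, and of them only Nr3c1 was higher with GFP in the Het recipients alone. Between GFP-positive and GFP-negative cells of the same recipient, Nr3c1 and Fkbp5 were higher in 3 of 3 Het recipients but not in the KO recipients as a group. Per1 was higher in 6 of 6 recipients of both genotypes. Tsc22d3, Sgk1 and Ddit4 were lower in 6 of 6. Among all genes tested, 17.7% were higher and 19.9% lower in 6 of 6 recipients.

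**Figure D1:**
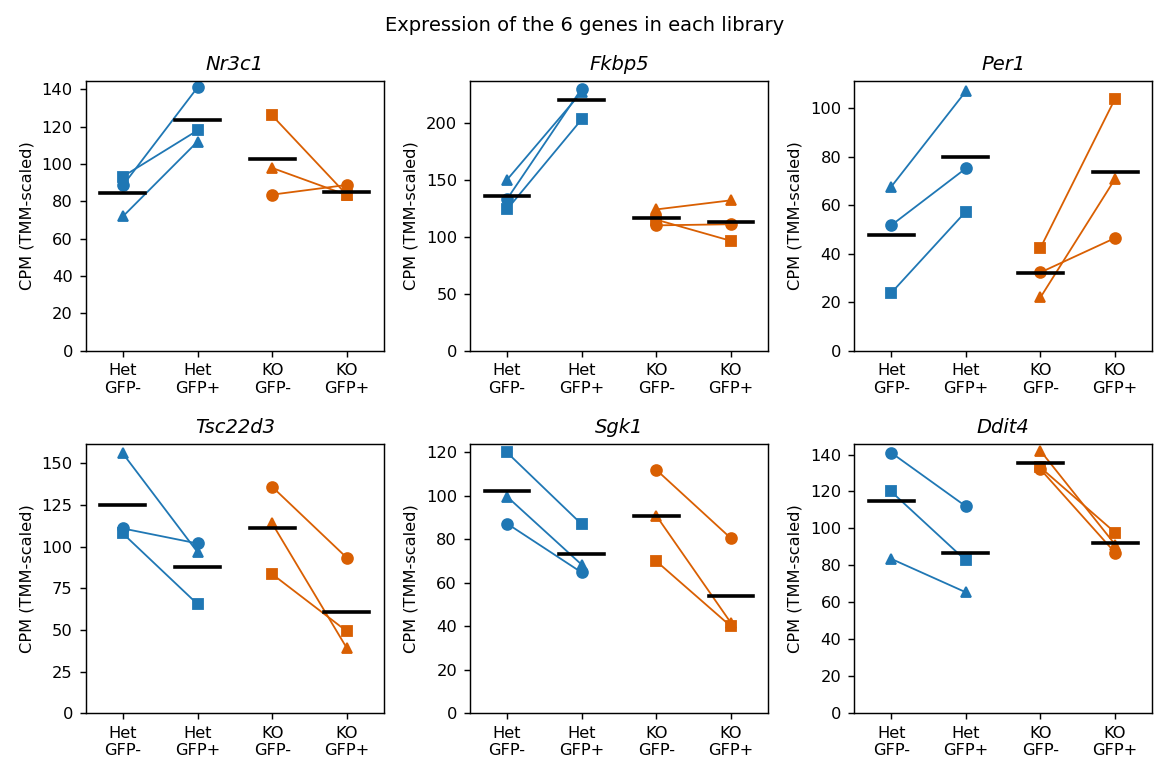
CPM after TMM scaling of the 6 genes in each of 12 libraries, by group. Blue is Het and orange KO, circles, squares and triangles are recipients 1, 2 and 3 of a genotype, lines join the 2 libraries of a recipient and black bars are means of 3 libraries. Fkbp5 and Nr3c1 lines climb steeply in the 3 Het recipients and lie flat or descend in the KO recipients, Per1 lines climb in all 6 recipients, and those of Tsc22d3, Sgk1 and Ddit4 descend in all 6.

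Nr3c1 (ENSMUSG00000024431.10, chromosome 18, 39410545 to 39491301, minus strand, mm10) is the receptor that all the other genes answer to. Its level was 88.5, 93.3 and 71.9 CPM in Het GFP-negative libraries and 141, 118 and 112 CPM in Het GFP-positive libraries. The groups did not overlap, and the ratio of GFP-positive to GFP-negative was 1.59, 1.27 and 1.55 in Het recipients 1, 2 and 3. In KO cells the levels were 83.6, 126 and 97.9 CPM without GFP and 88.8, 83.5 and 83.4 CPM with GFP. The KO groups overlapped, and the ratios were 1.06, 0.661 and 0.852. Het GFP-positive cells held the highest mean (124 ± 15.3 CPM). It was followed by KO GFP-negative (103 ± 21.8), KO GFP-positive (85.3 ± 3.10) and Het GFP-negative cells (84.5 ± 11.2), and neighbours in this order overlapped.

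Across all 13238 genes, the quasi-likelihood F-test of edgeR, with p adjusted by Benjamini and Hochberg to a false discovery rate (FDR), gave Nr3c1 a log2 fold change of 0.55 (SE 0.18, FDR 0.107) in Het GFP-positive over GFP-negative cells. With the recipient as a block it was 0.55 (SE 0.15, FDR 0.0227). That call rests on all 3 recipients, since the blocked FDR was 0.120, 0.0646 and 0.0758 without Het recipient 1, 2 and 3. In KO cells the log2 fold change was -0.27 (SE 0.18, FDR 0.416). All 3 Het GFP-positive libraries lay above all 3 KO GFP-positive libraries, a difference of 0.54 (SE 0.18, unadjusted p = 0.0106, FDR 0.530). The interaction, the Het change minus the KO change, was 0.82 (SE 0.25, unadjusted p = 0.00645, FDR 1.00), and 0.78 (SE 0.21, FDR 0.390) with the block. So the direction differed between genotypes in these libraries, but the difference did not pass the adjustment over all genes.

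Fkbp5 (ENSMUSG00000024222.12, chromosome 17, 28399095 to 28517524, minus strand) encodes the co-chaperone that lowers the receptor's affinity for hormone and is itself induced by the receptor. It was 133, 124 and 150 CPM in Het GFP-negative and 230, 203 and 227 CPM in Het GFP-positive libraries. These groups, which gave the reason for choosing the gene, do not overlap, and the ratios within recipients were 1.73, 1.64 and 1.52. The fitted log2 fold change was 0.70 (SE 0.15), given as a description. In KO cells Fkbp5 was 110, 115 and 124 CPM without GFP and 111, 96.4 and 132 CPM with GFP, with ratios of 1.01, 0.835 and 1.06. The KO groups overlapped, and the log2 fold change of -0.04 (SE 0.15, FDR 0.914) was not distinguishable from 0. Among GFP-negative cells, Het against KO gave 0.22 (SE 0.15, FDR 0.995). Het GFP-positive cells were the highest group at 220 ± 14.5 CPM, and 136 ± 12.9, 116 ± 7.45 and 113 ± 17.7 followed in Het GFP-negative, KO GFP-negative and KO GFP-positive cells, 3 groups of which neighbours overlapped. In the authors' deposited table, Fkbp5 had a log2 fold change of 0.67 (SE 0.17) between Het sorts. Their deposited table of Het and KO GFP-positive cells lists it at -0.84 (SE 0.20), where positive values stand for higher in KO. Both values come from the same counts that gave the reason for choosing the gene, so they are a description and no separate support.

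Per1 (ENSMUSG00000020893.13, chromosome 11, 69095217 to 69109960, plus strand) encodes a repressor of the circadian clock that glucocorticoids also induce directly. In Het cells it was 51.7, 23.8 and 67.6 CPM without GFP and 75.2, 57.4 and 107 CPM with GFP. These groups overlapped because recipients differed in level, yet each recipient's GFP-positive library was the higher, by 1.45, 2.41 and 1.58 times. KO libraries held 32.3, 42.4 and 22.0 CPM without GFP and 46.5, 104 and 70.9 CPM with GFP, with no overlap and ratios of 1.44, 2.46 and 3.23. Mean levels were 79.8 ± 25.1 CPM in Het and 73.9 ± 29.0 CPM in KO GFP-positive cells, above 47.7 ± 22.2 and 32.2 ± 10.2 CPM in the Het and KO GFP-negative cells. The log2 fold change of Per1 was 0.75 (SE 0.39, FDR 0.262) in Het and 1.17 (SE 0.40, FDR 0.228) in KO cells. With the recipient as a block the values were 0.80 (SE 0.21, FDR 0.0203) and 1.17 (SE 0.21, FDR 0.00652). Leaving out recipient 2 gave a blocked FDR of 0.160 in Het, and leaving out recipient 3 gave 0.0861 in KO. Het and KO GFP-positive cells differed by 0.15 (SE 0.40, FDR 1.00), a sign that turned in 3 alternatives, and the interaction was -0.42 (SE 0.56, FDR 1.00). The authors' deposited DESeq2 table of the KO sorts, with 388 genes, lists Per1 at 0.97 (SE 0.30, adjusted p = 0.0467). Their table of the Het sorts does not list Per1.

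The summed level of 9 dissociation stress genes (Fos, Jun and other immediate-early and heat shock genes), like Per1 higher in GFP-positive cells of all 6 recipients, was 371 to 595 CPM in Het GFP-negative and 521 to 703 CPM in Het GFP-positive libraries. In KO cells the sum was 474 to 737 CPM without GFP and 780 to 851 CPM with GFP. Single genes differed, with 6 of the 9 fitted higher and 3 lower in each sort comparison and Hspa1a and Hspa1b lower on average in both genotypes. The 8 myeloid markers summed to 183 to 1504 and 449 to 3402 CPM in the Het sorts and to 40.2 to 605 and 272 to 1201 CPM in the KO sorts, without and with GFP, and none of the 8 was at 0 throughout a group. Their part in the Per1 result was not tested.

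Tsc22d3 (ENSMUSG00000031431.9, chromosome X, 140539528 to 140600659, minus strand) encodes GILZ, a leucine zipper protein that inhibits NF-kappa B and AP-1 and is a standard marker of glucocorticoid exposure in lymphocytes. Its level was 111, 108 and 156 CPM in Het GFP-negative and 102, 65.6 and 96.8 CPM in Het GFP-positive libraries. Every Het GFP-positive library lay below every Het GFP-negative library, with ratios of 0.925, 0.605 and 0.621 within recipients. KO cells held 136, 83.6 and 114 CPM without GFP and 93.4, 49.3 and 39.2 CPM with GFP, at ratios of 0.689, 0.589 and 0.346. The KO groups overlapped through KO GFP-positive replicate 1, the library that stood apart from its group. Log2 fold changes were -0.50 (SE 0.31, FDR 0.337) in Het and -0.85 (SE 0.31, FDR 0.241) in KO cells. The blocked fit gave -0.50 (SE 0.19, FDR 0.0809) and -0.95 (SE 0.20, FDR 0.0122). Group means fell in the order Het GFP-negative (125 ± 26.9 CPM), KO GFP-negative (111 ± 26.1), Het GFP-positive (88.2 ± 19.8) and KO GFP-positive (60.6 ± 28.8), and neighbours in this order overlapped.

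Sgk1 (ENSMUSG00000019970.11, chromosome 10, 21882184 to 21999903, plus strand) encodes a kinase downstream of PI3K that the receptor induces and that stabilises Th17 cells. Het libraries held 87.3, 120 and 99.7 CPM without GFP and 64.8, 87.0 and 68.4 CPM with GFP. These groups just missed each other, at 87.3 and 87.0 CPM, and the ratios within recipients were close together at 0.743, 0.723 and 0.686. KO libraries held 112, 70.0 and 90.9 CPM without GFP and 80.5, 40.0 and 41.6 CPM with GFP, at ratios of 0.716, 0.571 and 0.458. KO GFP-positive replicate 1 was again the library that made the groups overlap. The log2 fold change was -0.49 (SE 0.27, FDR 0.286) in Het and -0.73 (SE 0.27, FDR 0.244) in KO cells, and with the block -0.48 (SE 0.14, FDR 0.0334) and -0.80 (SE 0.15, FDR 0.00683). Its group order was the one seen for Tsc22d3, from 102 ± 16.7 CPM in Het GFP-negative through 91.1 ± 21.2 and 73.4 ± 11.9 to 54.0 ± 23.0 CPM in KO GFP-positive cells, again with overlapping neighbours.

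Ddit4 (ENSMUSG00000020108.3, chromosome 10, 59949675 to 59951770, minus strand) encodes REDD1, an inhibitor of mTORC1 that responds to glucocorticoids, hypoxia and starvation. In Het cells it was 141, 120 and 83.6 CPM without GFP and 112, 82.7 and 65.5 CPM with GFP. The groups overlapped, while each recipient's ratio was below 1, at 0.798, 0.687 and 0.784. In KO cells it was 132, 133 and 142 CPM without GFP and 86.9, 97.8 and 91.3 CPM with GFP, tight groups far apart, with ratios of 0.657, 0.736 and 0.643. The log2 fold change was -0.40 (SE 0.22, FDR 0.270) in Het and -0.56 (SE 0.22, FDR 0.250) in KO cells, and with the block -0.40 (SE 0.12, FDR 0.0384) and -0.57 (SE 0.12, FDR 0.0141). The authors' deposited DESeq2 table of the KO sorts lists Ddit4 at -0.56 (SE 0.14, adjusted p = 0.00829), and that of the Het sorts does not list it. Mean levels were 136 ± 5.45 CPM in KO GFP-negative, 115 ± 28.9 in Het GFP-negative, 92.0 ± 5.47 in KO GFP-positive and 86.8 ± 23.6 in Het GFP-positive cells, and neighbours in this order overlapped.

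**Figure D2:**
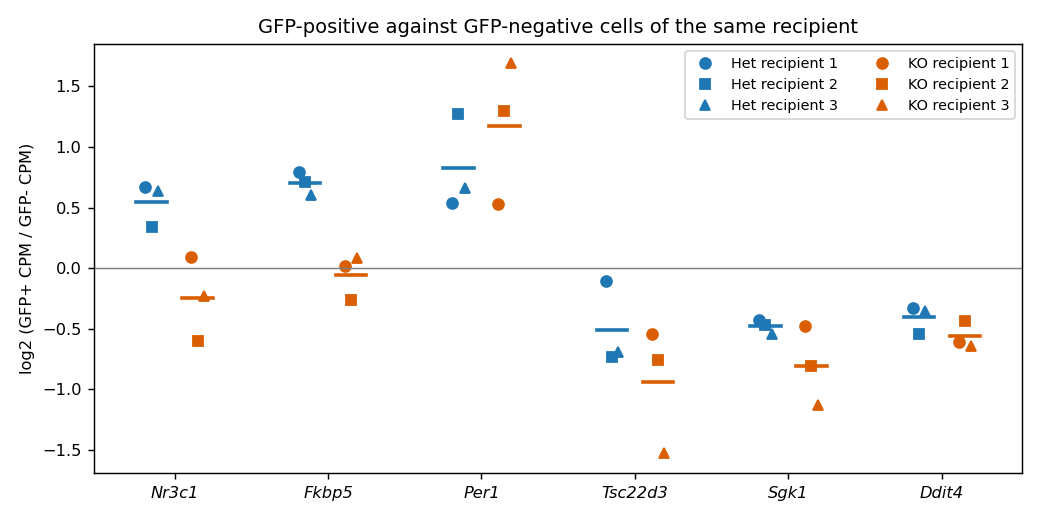
Log2 ratio of CPM in GFP-positive over GFP-negative cells of the same recipient for the 6 genes, 3 Het recipients (blue) and 3 KO recipients (orange), with bars at the mean of 3. Nr3c1 and Fkbp5 lie above 0 in all Het recipients (0.34 to 0.79) and between -0.60 and 0.09 in KO recipients, Per1 lies above 0 in all 6, and Tsc22d3, Sgk1 and Ddit4 lie below 0 in all 6.

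The summed CD4 T cell markers were lower with GFP, as these 3 genes were, from 1334 to 1815 CPM in Het GFP-negative to 996 to 1098 CPM in Het GFP-positive libraries, and from 1576 to 1780 to 1035 to 1399 CPM in KO cells. On the log2 scale the ratio of the sums within recipients ran from -0.87 to -0.28. Of the 5 markers 4 were fitted lower and 1, Cd3e, higher, with Cd3e ratios of 0.11, 0.19 and 0.65 in the Het recipients and a mean of 0.01 in the KO recipients. Their part in the lower Tsc22d3, Sgk1 and Ddit4 was not tested.

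Counted over the 5 genes other than Fkbp5, 0 passed FDR 0.05 in Het GFP-positive against GFP-negative cells, where 3.45% of all genes passed, and 1 (Nr3c1) had an unadjusted p under 0.05, against 23.2% of all genes. With the recipient as a block 4 of 5 passed (Nr3c1 and Per1 higher, Sgk1 and Ddit4 lower), against 22.2% of all genes. DESeq2 without a block called Nr3c1 alone (FDR 0.0391), against 9.22% of all genes, and limma-voom with sample quality weights called 0, against 16.5%. Nr3c1, Tsc22d3 and Sgk1 had groups that did not overlap, as did 27.3% of all genes, and all 5 had 3 of 3 recipients in the same direction, as did 60.4%. The median log2 fold change of the 5 was -0.40, beside -0.02 over all genes. Leaving out any Het recipient reduced the blocked calls to at most 1 of 5, Per1.

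In KO cells all 6 genes could be tested. By edgeR without the block 0 of 6 passed FDR 0.05, beside 0.128% of all genes, and 4 (Per1, Tsc22d3, Sgk1 and Ddit4) had an unadjusted p under 0.05, beside 17.5%. The blocked fit called these 4, beside 17.7% of all genes, and so did limma-voom with sample quality weights, which called 43.9% of all genes. DESeq2 called 0 of 6, beside 3.05% of all genes. Without KO recipient 1 or 2 the blocked fit still called these 4, and without recipient 3 it called 0. The unblocked test called Per1, Sgk1 and Tsc22d3 once KO GFP-positive replicate 1 was left out (FDR 0.0416, 0.0213 and 0.0213), where 12.6% of all genes were called in place of 0.128%. Groups did not overlap for Per1 and Ddit4, beside 20.3% of all genes. Per1, Tsc22d3, Sgk1 and Ddit4 had 3 of 3 recipients in the same direction, beside 52.8%. The median of the 6 was -0.42, beside -0.02 over all genes.

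No member tested between genotypes was called, and Fkbp5 was tested there in GFP-negative cells only. For Het against KO GFP-positive cells 0 of 5 passed by edgeR, beside 0.106% of all genes, and Nr3c1 alone had an unadjusted p under 0.05, beside 6.22%. Fkbp5 differed there by 0.96 (SE 0.15), given as a description. Of the other 5, Nr3c1 alone had groups that did not overlap, beside 7.48% of all genes. Tsc22d3 (0.53, FDR 0.898) and Sgk1 (0.41, FDR 0.922) had the same sign as Fkbp5, and Ddit4 was at -0.08 (FDR 1.00). Comparing the GFP-negative cells of both genotypes, 0 of 6 passed, beside 0% of all genes, and 0 of 6 had an unadjusted p under 0.05, beside 5.25%. For the interaction 0 of 5 passed, beside 0.00755% of all genes without and 0.0755% with the block, and Nr3c1 alone had an unadjusted p under 0.05, beside 1.99%. DESeq2 and limma-voom also called 0 members in these 3 comparisons. Between GFP-positive cells limma-voom gave larger values for Tsc22d3 (0.84, SE 0.25, FDR 0.147) and Sgk1 (0.84, SE 0.22, FDR 0.115). It put Nr3c1 at 0.54 (FDR 0.123), Per1 at -0.10 and Ddit4 at -0.09. The comparisons share libraries, so their values are not independent of each other.

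Per kilobase of exon, which allows genes to be compared, Ddit4 was the most abundant of the 6 in each group (mean 51.5 to 80.6 CPM per kb) and Per1 the least abundant in Het GFP-negative, Het GFP-positive and KO GFP-negative cells (8.48, 14.2 and 5.72 CPM per kb). In KO GFP-positive cells Sgk1 (11.0) and Nr3c1 (11.5) lay below Per1 (13.1 CPM per kb), within the spread of these libraries. On this scale the mean of Fkbp5 exceeded that of Tsc22d3 in the GFP-positive groups, at 34.6 against 20.3 CPM per kb in Het and 17.8 against 14.0 in KO, and lay below it in the GFP-negative groups, at 21.3 against 28.8 and 18.3 against 25.6.

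Over the 12 libraries, Pearson's r of log2 CPM with Fkbp5 was 0.60 for Nr3c1, 0.41 for Per1, 0.11 for Tsc22d3, 0.03 for Sgk1 and -0.48 for Ddit4. In this order they ranked 335, 1338, 3777, 4403 and 9062 from the top among 9819 genes. Tsc22d3 and Sgk1 had the highest r among the 6 genes, 0.84, and Per1 was opposite to Sgk1 and Ddit4 at -0.69 each. These describe 12 libraries that share recipients and sorts. Of 9819 genes whose mean reached 5 CPM, those most like Fkbp5 were Grk6 and Herc4 (r 0.89), Rab3ip and Prr7 (0.88) and Socs3 (0.86), and the most opposite were Timp2 (-0.94), Matk (-0.93) and Cass4 (-0.92). Socs3, a feedback inhibitor of cytokine signalling, averaged 82.4 CPM in Het GFP-positive cells against 19.9 to 47.7 CPM in the other groups. Cass4, a scaffold protein of focal adhesions, averaged 6.96 CPM against 25.7 to 36.3 CPM. Grk6 averaged 393 CPM in Het GFP-positive cells against 293 to 324 CPM. All were picked by their r with Fkbp5, itself highest in Het GFP-positive cells, so these directions follow from the picking.

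The machinery around the receptor (16 chaperones, co-chaperones and coregulators, all tested) held 0 genes called by edgeR in each of the 5 comparisons, and 2 between Het sorts and 3 between KO sorts had an unadjusted p under 0.05, beside 23.2% and 17.5% of all genes. DESeq2 called 1 between Het sorts and 0 between KO sorts, beside 9.22% and 3.05% of all genes, and limma-voom 2 and 7, beside 16.5% and 43.9%. Between genotypes and for the interaction both called 0. The most abundant were Hsp90ab1, an HSP90 that holds the receptor ready for hormone (-0.23, SE 0.24, FDR 0.595 in Het; -0.28, SE 0.24, FDR 0.530 in KO), and Hspa8, the HSC70 chaperone (-0.35, SE 0.23, FDR 0.374 and -0.22, SE 0.23, FDR 0.602). With the recipient as a block, the coactivator gene Ncoa1 (0.80 in Het, FDR 0.00383; 0.76 in KO, FDR 0.00912) was higher in GFP-positive cells of both genotypes, and the chromatin remodeller gene Smarca4 (0.47, FDR 0.0470) in KO. These names were chosen with their values in view. Blocked calls upward made up 12.8% of all genes in Het and 9.60% in KO cells. Without KO recipient 3 neither was called in KO cells.

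Of 6 genes that set how much hormone reaches the receptor, 4 were tested, and Hsd11b2 and Nr3c2 did not pass the filter on low counts. By edgeR 0 of the 4 were called in any comparison, and 2 between Het sorts and 1 between KO sorts had an unadjusted p under 0.05, beside 23.2% and 17.5% of all genes. DESeq2 called 0, and limma-voom called Hsd11b1 lower in both sort comparisons, beside 16.5% and 43.9% of all genes called. Hsd11b1, whose enzyme regenerates active hormone inside the cell, averaged 72.6 ± 14.7 CPM in Het GFP-negative and 45.6 ± 10.5 CPM in Het GFP-positive cells, and 90.4 ± 17.7 and 56.3 ± 25.8 CPM in KO cells. It was lower with GFP in 6 of 6 recipients (log2 fold change -0.66 in Het, FDR 0.201, and -0.66 in KO, FDR 0.279), and the blocked FDR was 0.0404 and 0.0319. Abcb1a, a drug and steroid efflux pump, was at 0.64 in Het (FDR 0.183; blocked 0.71, FDR 0.0217) and -0.05 in KO cells (FDR 0.940). Of these blocked calls, Hsd11b1 in KO held without recipient 1 and Abcb1a without Het recipient 2, and leaving out any other recipient of the genotype ended them.

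A further 26 genes that glucocorticoids induce in various cells were listed, and 23 were tested. In Het GFP-positive cells 2 were called and both fell, beside 1.63% of all genes called lower. Il7r, the interleukin-7 receptor chain that supports naive and memory T cell survival, had a log2 fold change of -1.91 (SE 0.32, FDR 0.00974) and fell from 504 ± 50.9 to 134 ± 26.8 CPM. Btg2, an antiproliferative gene of quiescent T cells, fell by 0.87 (SE 0.18, FDR 0.0253), from 250 ± 41.7 to 137 ± 24.6 CPM. In KO cells Il7r alone was called, beside 0.121% of all genes lower, and fell by 2.05 (SE 0.33, FDR 0.0384), from 288 ± 79.8 to 68.5 ± 35.3 CPM. Il7r was lower in 6 of 6 recipients, at 0.143 to 0.369 of its GFP-negative level. Its Het call held without each library in turn (FDR 0.0217 to 0.0484), while its KO call ended when GFP-negative replicate 1 or 2, or GFP-positive replicate 2 or 3, of the KO libraries was dropped (FDR 0.121 to 0.235). The Btg2 call ended when replicate 2 or 3 of the Het GFP-negative libraries, or replicate 1 or 3 of the Het GFP-positive ones, was dropped (FDR 0.0567 to 0.154). Between the sorts DESeq2 called 3 of 23 in Het (Zfp36l2 higher, Il7r and Btg2 lower) and 2 in KO cells (Cebpd higher, Il7r lower), beside 9.22% and 3.05% of all genes. In limma-voom 5 were higher and 4 lower in Het, and 5 higher and 6 lower in KO cells, beside 16.5% and 43.9% called. Comparing genotypes, edgeR, DESeq2 and limma-voom each called 0 of 23 in either sort and in the interaction. By edgeR 3 had an unadjusted p under 0.05 in GFP-positive cells, beside 6.22% of all genes, and 1 in GFP-negative cells, beside 5.25%. Between the sorts 11 of 23 had an unadjusted p under 0.05 by edgeR in Het and 11 in KO cells, beside 23.2% and 17.5% of all genes.

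The blocked fit split the 23 genes. In Het cells 10 were higher and 4 lower with GFP, and in KO cells 7 were higher and 6 lower. Over all genes 12.8% were called higher and 9.41% lower in Het, and 9.60% and 8.14% in KO cells. Cebpd, Klf9, Per2, Irs2, Dusp1, Rgs2 and Zfp36 were higher in both genotypes, and Il7r, Btg1, Btg2 and Txnip lower in both. Klf9, a receptor target in many tissues, was at 2.94 ± 1.07 and 7.20 ± 3.47 CPM in the Het sorts (blocked log2 fold change 1.25, FDR 0.0156) and at 2.92 ± 2.06 and 10.8 ± 8.01 CPM in the KO sorts (1.86, FDR 0.00362). Dusp1, a phosphatase that switches off MAP kinases, went from 73.1 ± 37.2 to 125 ± 27.3 CPM in Het cells (0.85, FDR 0.00588) and from 81.0 ± 18.2 to 130 ± 9.88 CPM in KO cells (0.71, FDR 0.0205). Txnip, an inhibitor of glucose uptake, went from 491 ± 158 to 256 ± 70.2 CPM in Het cells (-0.93, FDR 0.00307) and from 458 ± 139 to 214 ± 103 CPM in KO cells (-1.17, FDR 0.00205). An antisense gene, Gm15441, overlaps 606 bases of its exons, and the strand setting of the counting is not given in the sources used here. Klf9, Dusp1 and Txnip were picked with their values in view. Calls fell to 5 of 23 without Het recipient 2 and to 4 of 23 without KO recipient 3, and Cebpd, Il7r and Txnip were called without each recipient in turn. Dusp1 is also an immediate-early gene, and Cebpd and Klf9 are transcribed in myeloid cells. Myeloid markers were higher in the GFP-positive library of each recipient by 0.99 to 2.76 on the log2 scale, and their part in these results was not tested. The median unblocked log2 fold change of the 23 was 0.57 in Het and 0.25 in KO cells, beside -0.02 over all genes in each. These medians rest on single libraries, running from 0.14 (without Het GFP-positive replicate 3) to 0.94 (without Het GFP-negative replicate 3) in Het and from 0.07 (without KO GFP-positive replicate 2) to 0.28 in KO cells.

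**Figure D3:**
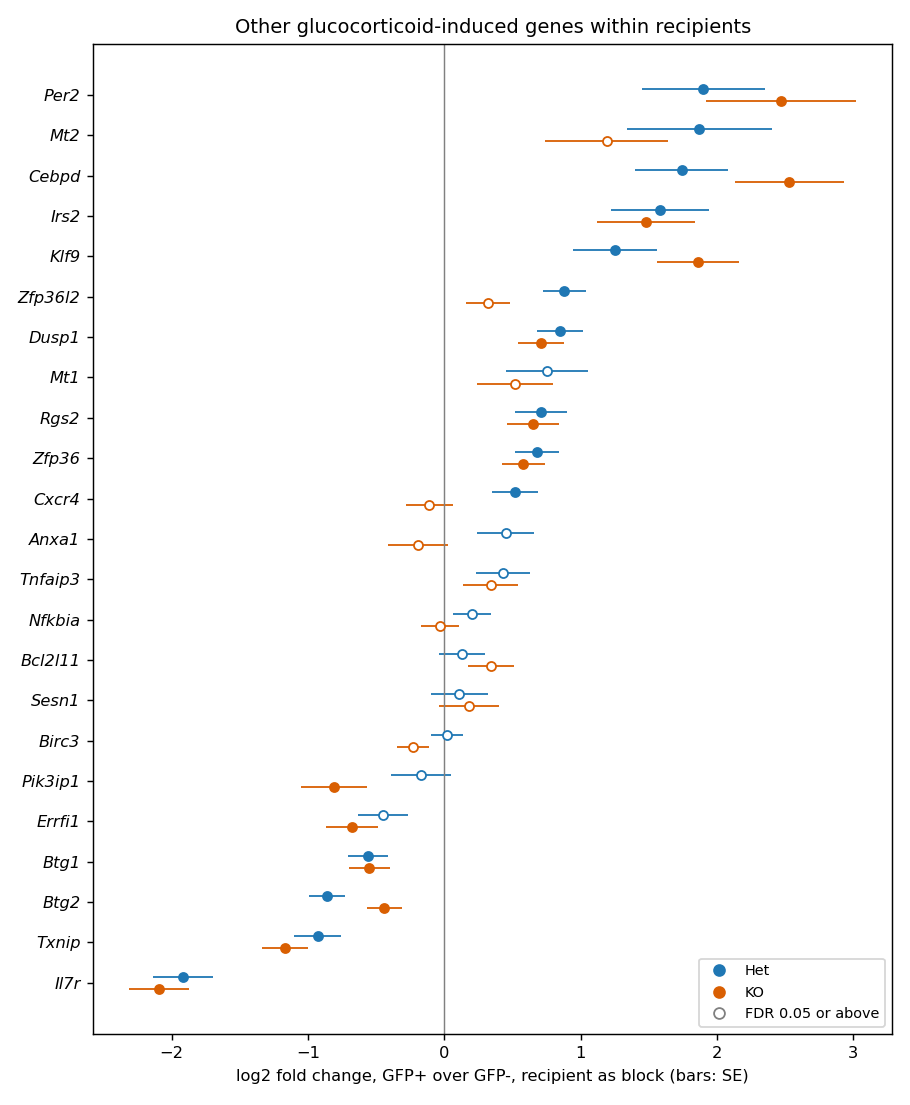
Log2 fold change with its SE, GFP-positive over GFP-negative cells with the recipient as a block, for the 23 tested genes of the list, Het in blue and KO in orange. Filled points passed FDR 0.05. Per2 (1.90 in Het, 2.47 in KO) lies near or at the right end and Il7r (-1.92, -2.09) at the left end in both genotypes.

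Because Per1 belongs to the clock, 12 other clock genes were set beside it, and Per2 is in this list and in the previous one. Without the block edgeR called 2 in Het cells, both lower with GFP, beside 1.63% of all genes called lower. In Het cells 9 had an unadjusted p under 0.05, beside 23.2% of all genes. In KO cells edgeR called 0, and 5 had an unadjusted p under 0.05, beside 17.5% of all genes. Between genotypes it called 0 in either sort, and 0 had an unadjusted p under 0.05, beside 6.22% of all genes with GFP and 5.25% without. DESeq2 called 5 of the 12 in Het and 1 in KO cells, beside 9.22% and 3.05% of all genes, limma-voom 8 and 7, beside 16.5% and 43.9%, and both called 0 between genotypes. Cry1, a partner of the PER repressors, fell by 0.67 (SE 0.16, FDR 0.0452), from 75.9 ± 2.19 to 48.0 ± 7.96 CPM. Nr1d1, the REV-ERB alpha repressor of Arntl, fell by 3.22 (SE 0.64, FDR 0.0205), from 4.87 ± 2.81 to 0.479 ± 0.267 CPM, with 11 counts in all in the 3 Het GFP-positive libraries. Part of Nr1d1 (263 exon bases) overlaps Thra on the other strand. Cry1 lost its call without any 1 of the 6 Het libraries (FDR 0.0598 to 0.177), and Nr1d1 when replicate 1 or 2 of the Het GFP-positive cells was dropped (FDR 0.0678 and 0.0579). In KO cells Nr1d1 was at 2.83 ± 1.24 CPM without GFP and 0.228 ± 0.236 CPM with GFP, with 6 counts in all and 0 in replicate 2 (log2 fold change -3.17, SE 0.71, FDR 0.137).

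The blocked fit called 9 of the 12 clock genes in Het cells, 3 higher and 6 lower, and 7 in KO cells, 3 higher and 4 lower. Over all genes it called 12.8% higher and 9.41% lower in Het, and 9.60% and 8.14% in KO cells. Per2 (1.90, FDR 0.0123 in Het; 2.47, FDR 0.0148 in KO), Ciart (1.76, FDR 0.0109; 1.21, FDR 0.0479) and Cry2 (0.89, FDR 0.0193; 0.75, FDR 0.05 after rounding and just under the threshold), which like Per1 encode repressors within the clock, were higher in both. Nr1d1, Nr1d2, Cry1 and Bhlhe40 were lower in both. Among these are the repressor gene Nr1d1 and Cry1, the partner of the PER repressors, so genes of clock repression were called in both directions. The activator genes Arntl (-0.61, FDR 0.0105) and Clock (-0.73, FDR 0.00737) were called lower in Het. Arntl (-0.21, FDR 0.292) and Clock (-0.34, FDR 0.139) in KO cells did not pass, and 0 of the 12 had a called interaction. Per2 and Ciart rest on low levels, at most 5.66 ± 2.23 CPM and 3.33 ± 1.53 CPM per group. Calls fell to 2 of 12 without Het recipient 2 and to 1 of 12, Nr1d1, without KO recipient 3. The hour at which each spleen was taken is not given in the sources used here, while both libraries of a recipient come from the same spleen.

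**Figure D4:**
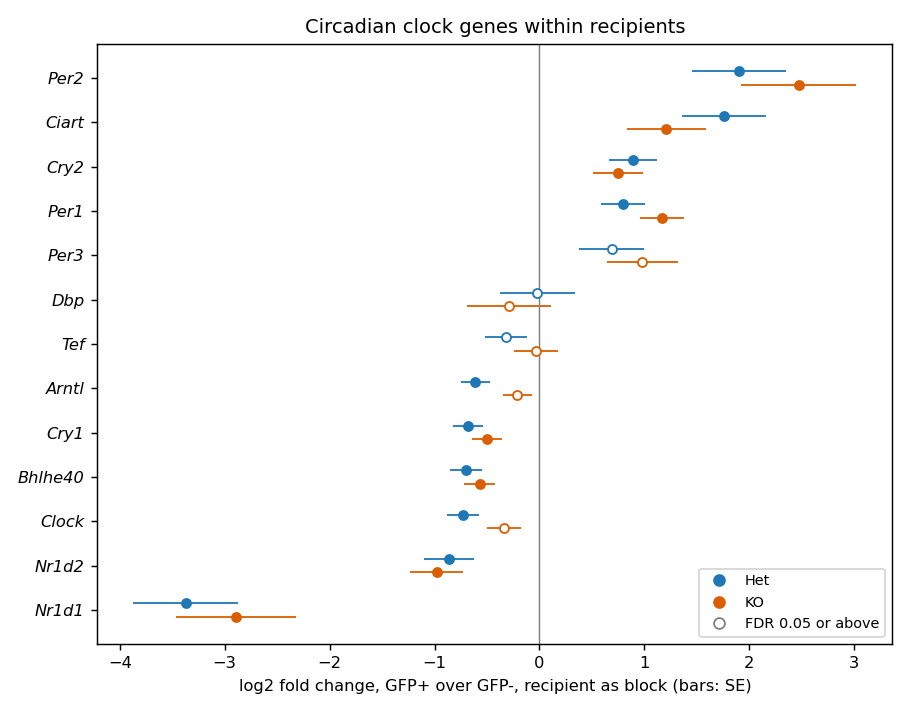
Log2 fold change with its SE, GFP-positive over GFP-negative cells with the recipient as a block, for Per1 and the 12 clock genes, Het in blue and KO in orange. Filled points passed FDR 0.05. Per2, Ciart, Cry2, Per1 and Per3 lie right of 0 and Nr1d1 and Nr1d2 furthest left in both genotypes.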

How the data were processed

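Ribosomal RNA was depleted from total RNA and stranded libraries were made, per the labels' protocols. The submitters' processing notes name bcl2fastq 1.8.4, TopHat2 2.0.13, featureCounts 1.5.0-p1, DESeq2 1.6.1 and mm10, and the strand setting is not given in the sources used here. The authors deposited raw whole-number counts per gene, without normalization. The authors' deposited DESeq2 tables hold a mean normalized signal, a log2 fold change with its SE, a test statistic (a score) and p-values, and were used for description only. Their Het against KO GFP-positive table has the opposite sign to the counts (0 of 77 genes with the same sign). The deposited tables list 1406 genes for the Het sorts, 77 for GFP-positive cells and 388 for the KO sorts. The largest adjusted p by DESeq2 was 0.0496, 0.0456 and 0.0495, so only genes under 0.05 are listed. Of the members, the KO table lists Per1 and Ddit4 alone, and no member other than Fkbp5 is in the other tables.

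Libraries were grouped by donor genotype and GFP sort. The main test was edgeR 4.0.16 (R 4.3.3) quasi-likelihood, two-sided, with TMM scaling, filterByExpr (minimum count 10), 4 group means over 12 libraries (common dispersion 0.0835) and Benjamini-Hochberg adjustment over 13238 genes, with calls at FDR 0.05. CPM values are TMM-scaled. SE is the log2 fold change over the root of F. Within a genotype, a shared replicate number stands for a shared recipient per the design text (r of their deviations 0.241 to 0.617), so the value with the recipient as a block stands beside results whose call it changes. Alternatives were DESeq2 1.42.0, limma 3.58.1 voom with quality weights, other scaling, no filter, fits on the compared groups, dropping abundant features and leaving out each library. The blocked fits without a recipient were added after seeing the data. Total counts ran from 2116894 to 18167236, and the fits estimated the spread between libraries as well as the counting error. No molecular identifiers were used, so reads and not molecules were counted. No libraries were copies of each other. Scripts were tested on simulated data.

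The members and gene lists were chosen with earlier results of these data known. The text names the 6 members, Eomes, called list members (or the 2 most abundant where none was called) and the 5 genes most and 3 least like Fkbp5. Genes named for blocked calls alone were picked with their values in view. B cell, NK and CD8 T cell markers were also summed, and no such sum was higher in the GFP-positive library of all 6 recipients.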

Additional observations from a re-analysis of the deposited data

How the results depend on the processing

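Without a low-count filter, with DESeq2 and with limma-voom, the calls over all genes were 897, 1196 and 2190 between Het sorts, 72, 93 and 51 between GFP-positive cells, 201, 403 and 5808 between KO sorts, 26, 45 and 81 between GFP-negative cells and 6, 11 and 2 for the interaction. Fitting only the compared groups gave 2, 10 and 7 for the GFP-positive, KO and GFP-negative comparisons, and dropping abundant features gave 2 for the interaction. The recipient as a block called 2944 genes between Het sorts, 2349 between KO sorts and 10 for the interaction. A block on the replicate number, which pairs nothing between genotypes, called 6 genes between GFP-negative cells. Of the members, the block called 4 in Het and 4 in KO cells, DESeq2 1 in Het and limma-voom 4 in KO, and the block changed no other call of a member.

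Leaving out each library gave 88 to 360 calls over all genes between Het sorts, 3 to 7 between GFP-positive cells, 5 to 1760 between KO sorts, 0 to 7 between GFP-negative cells and 0 to 1 for the interaction. Leaving out each recipient in the blocked fit gave 1070 to 1817 between Het sorts (1618 without recipient 1), 319 to 3930 between KO sorts (652 without recipient 2) and 1 to 19 for the interaction (15 without KO recipient 2). Member calls ran from 0 to 1 in Het and from 0 to 4 in KO cells.

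Signs turned for values near 0. Per1 between GFP-positive cells was -0.10 with limma-voom, -0.13 without Het GFP-positive replicate 3 and -0.14 without KO GFP-positive replicate 1 (range without each library -0.14 to 0.43), and Ddit4 there was 0.09 without Het GFP-positive replicate 3 (-0.31 to 0.09). Fkbp5 between KO sorts was 0.01 with DESeq2, 0.09 with limma-voom, 0.03 without KO GFP-negative replicate 3, 0.06 without KO GFP-positive replicate 2 and 0.04 with the block and without recipient 2 (-0.18 to 0.06 without each library). Between GFP-negative cells Tsc22d3 was -0.03 with limma-voom, -0.05 without Het GFP-negative replicate 3 and -0.03 without KO GFP-negative replicate 2, where Sgk1 was -0.02 (ranges -0.05 to 0.32 and -0.02 to 0.33). The interaction of Ddit4 was -0.02 without Het GFP-negative replicate 3 and -0.07 without Het GFP-positive replicate 1 (-0.07 to 0.36). The cause of these changes was not tested, beyond the smaller number of libraries in the fits that leave some out. The 3 libraries per group and the 56 to 146 counts of some members in KO GFP-positive replicate 2 limit what can be told apart.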
